A study of Schizosaccharomyces pombe with 24 samples.

Results

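Convergent gene pairs are neighbouring genes that are transcribed towards each other, so that their 3′ ends meet. In the genome annotation deposited for this fission yeast (Schizosaccharomyces pombe) series, genes with an mRNA on chromosomes I, II and III were sorted by start. Each adjacent pair with the left gene on the plus strand and the right gene on the minus strand was taken. This gave 1394 convergent pairs of 5110 neighbouring pairs, beside 2320 tandem pairs (same strand) and 1396 divergent pairs (minus strand, then plus). The pairs held 2788 of 5113 protein-coding genes (54.5%).

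The series profiled H3K9me2 and H3K9me3, methylation marks of heterochromatin on histone H3, by ChIP-seq in 24 libraries, 1 per group. Every strain carried a 10xteto-ade6+ reporter, which took the place of ura4 at the ectopic site and of cenH at the endogenous site. Ectopic-site strains were clr4D, swi6D, swi6Dmst2D, swi6Dset1D, swi6Dmst2Dset1D, set1Dmst2D and WT, and endogenous-site strains were swi6D, swi6Dmst2D, swi6Dset1D, swi6Dmst2Dset1D and WT, where D marks a deleted gene. All were grown in YEA to log phase at 32 °C. The values below come from the 2 deposited annotations, which carry positions and no value per library, so H3K9 methylation at these pairs was not analysed here and no test between genotypes was made.

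Each mRNA ends in a 3′ untranslated region (3′ UTR), the stretch after the stop codon where cleavage and polyadenylation signals lie. Where convergent genes overlap, both strands of the shared bases can be transcribed, and the transcripts are complementary there. In fission yeast, convergent genes are known as places where cohesin gathers and where read-through can give double-stranded RNA, the substrate of the RNA interference (RNAi) pathway that directs H3K9 methylation at centromeric repeats.

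The meeting points of some convergent pairs were narrow enough that the whole gap or overlap can be printed. The first line below is the entire gap between rdp1, which encodes the RNA-directed RNA polymerase of RNAi, and ade3, an adenine biosynthesis gene (chrI:1329062-1329090). The second is the entire gap between clr2, of the SHREC histone deacetylase complex, and the mitochondrial ribosomal protein gene mrps18 (chrI:4966981-4966989). The third is every base shared by arb2, of an Argonaute chaperone complex, and crb3 (chrI:2310271-2310294). The last lines are windows of 30 bases in which both genes of an overlapping pair carry AATAAA, the poly(A) signal hexamer, in opposite directions (chrI:4160598-4160627, chrI:5326386-5326415 and chrII:652947-652976). Sequences were read from the RefSeq assembly ASM294v3, plus strand. Capitals mark AATAAA, the signal of the left gene, and TTTATT, the same signal read from the right gene on the minus strand.
rdp1/ade3 gap: acacatatactcgatggttaaagcaattt
clr2/mrps18 gap: tgtcttttg
arb2/crb3 overlap: ttttccaatgagattataacaaaa
psd2/mss51 signals: ttgacacccAATAAATTTATTTTATTgata
uaf2/SPAP8A3.07c signals: attctTTTATTgtttactAATAAActtgat
elg1/dsc1 signals: tgatattcAATAAAaTTTATTTTATTtact
In psd2/mss51 and elg1/dsc1 the opposed hexamers lay next to each other or 1 base apart, and in uaf2/SPAP8A3.07c the signal of the minus-strand gene came first.

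The genes of 836 of the 1394 convergent pairs overlapped (60.0%, 95% Wilson interval 57.4 to 62.5%), against 21.9% of all neighbouring pairs. Intervals of this kind cover counting over pairs only, and gene pairs are not replicates of a condition. Overlap was found in 154 of 2320 tandem pairs (6.64%, interval 5.69 to 7.72%) and in 131 of 1396 divergent pairs (9.38%, interval 7.96 to 11.0%). Of these 131, 98 were convergent when genes were sorted by lowest coding base, as described below. Overlap was the usual state only in the convergent orientation. Overlap length was counted from the start of the right gene to the end of the left gene, so where 1 gene lay inside the other (102 pairs) it exceeds the bases they share. Overlaps of convergent pairs had a median of 161 bases with quartiles of 70 and 1045, and overlaps of tandem pairs a median of 31 bases. Where convergent genes did not overlap, the gap had a median of 167.5 bases (quartiles 57.25 and 496), against 343 bases in tandem and 791 bases in divergent pairs. In 10 convergent pairs the genes abutted with no base between them.

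**Figure D1:**
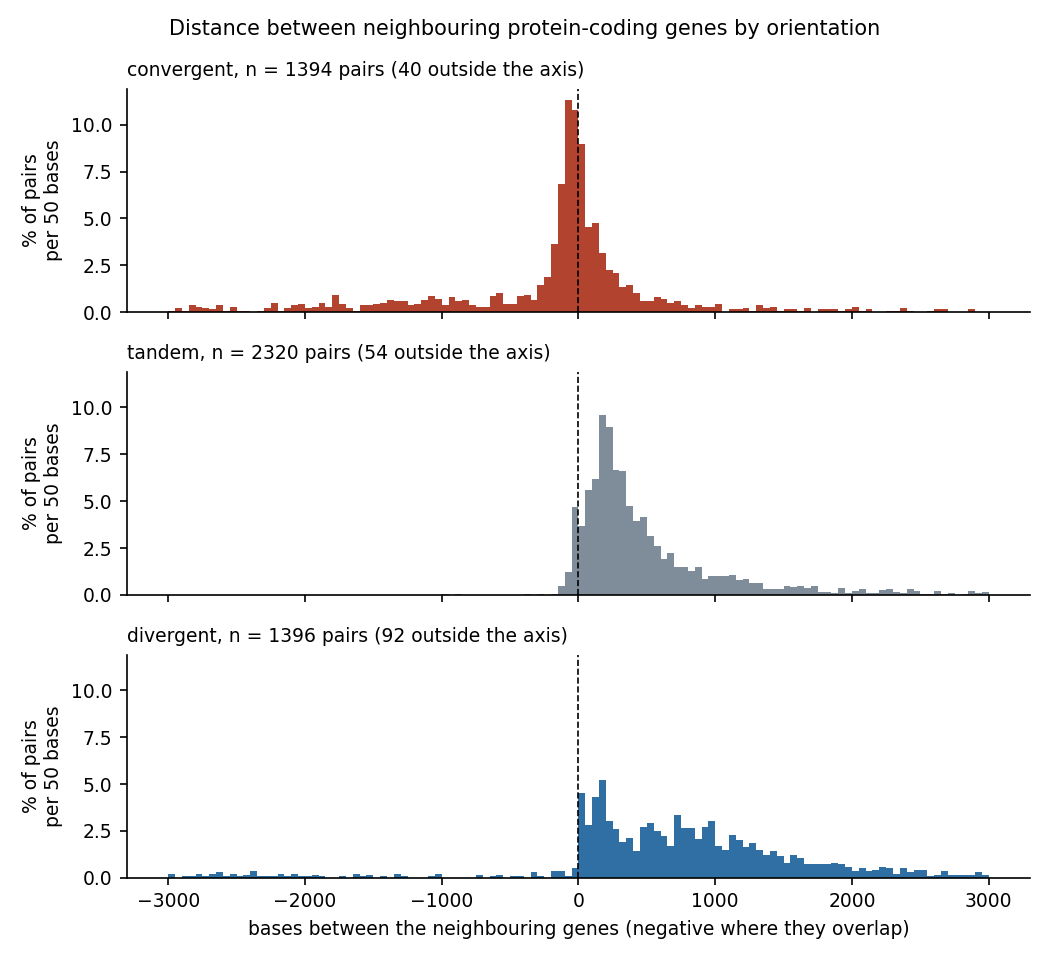
Bases between neighbouring protein-coding genes (x axis, negative where the genes overlap) as the percentage of pairs per 50 bases (y axis), for 1394 convergent, 2320 tandem and 1396 divergent pairs. Convergent pairs gather around 0 with a long tail of overlaps on the left, whereas most tandem and divergent pairs lie to the right of 0.

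Overlap lengths ranged widely, and most were under 200 bases. Of the 836 overlaps, 453 were under 200 bases (54.2%), 165 were from 200 to under 1000 bases (19.7%) and 218 were 1000 bases or more (26.1%). The shortest overlap was 1 base, in ubc7/yar1, pma2/spt2 and mug170/pal1. The 5 longest were rad3/swi1, ams1/dhd1, bet4/SPCC1620.06c, alp41/mug62 and msw1/peg1.

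The longest overlap lay on chromosome II between rad3, the ATR-like DNA damage checkpoint kinase gene (904184 to 913629), and swi1, a replication fork protection gene (907370 to 914779). They overlapped by 6260 bases, with stop codons 77 bases apart and 3′ UTRs of 2104 bases in rad3 and 4233 bases in swi1. Each 3′ UTR ran across coding sequence of the other gene, and 6124 of the shared bases were of this kind. On chromosome I, ams1, an alpha-mannosidase gene (2914479 to 2920278), overlapped dhd1 (2914746 to 2919636) by 5533 bases. There too both 3′ UTRs were long, 2144 and 3616 bases, and ams1 covered the whole of dhd1, so that 4891 bases were shared.

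In the other 3 of the 5 pairs the 3′ UTR of the left gene was several times the longer. In bet4/SPCC1620.06c on chromosome III, bet4, which encodes a subunit of a prenyl transferase, had a 3′ UTR of 4338 bases and its neighbour one of 1052 bases. Their overlap was 5143 bases, of which 2275 were shared, since bet4 covered its neighbour whole. In alp41/mug62 on chromosome I the 3′ UTR of alp41, which encodes an Arl2-like GTPase, was 4972 bases and that of mug62 was 73 bases, with an overlap of 5081 bases, 4796 of them shared. In msw1/peg1, also on chromosome I, the mitochondrial tryptophan tRNA synthetase gene msw1 had a 3′ UTR of 4074 bases, against 753 bases in its partner, and overlapped the CLASP gene peg1 by 4831 bases.

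The longest gaps were not all free of other protein-coding genes, since a gene starting before the left gene can reach across. The longest separated fah1 and SPBPB8B6.05c on chromosome II by 5250 bases, and the next SPAC977.17 and SPAPJ695.02 on chromosome I by 4630 bases. Between rpb7, an RNA polymerase II subunit gene, and eft201, a translation elongation factor gene, lay 4509 bases with 4 non-coding genes between the stop codons. A gap of 4475 bases separated mde3, a meiotic kinase gene, from tim50, a mitochondrial import gene. The minus-strand gene sec31 (1393345 to 1399637) lay across nearly all of that gap. In the same way tcb3 (2901946 to 2907214) reached into the gap of rpb7/eft201, and grt1 (47369 to 51181) into that of fah1/SPBPB8B6.05c. The longest gap of chromosome III, 4049 bases, lay between dga1, a diacylglycerol acyltransferase gene, and wtf4, a member of a spore killer family. Gaps over 1000 bases were found in 73 pairs, and 64 of these (87.7%) had a non-coding gene between the stop codons. Over all convergent pairs that share was 43.7%.

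Most bases between the stop codons of convergent pairs were annotated as 3′ UTR. The 3′ UTR, counted in genome bases from the last coding base to the gene end, had a median of 237 bases over the 2788 genes in convergent pairs (quartiles 132 and 446) and of 250 bases over the 2325 other protein-coding genes. The tail of long 3′ UTRs was heavier in convergent pairs: 318 of 2788 genes (11.4%) had one over 1000 bases, against 111 of 2325 other genes (4.77%). Genes without an annotated 3′ UTR were fewer, 140 (5.02%) in convergent pairs against 248 others (10.7%). Membership is not independent of 3′ UTR length here, since a long 3′ UTR can move a gene in the order by start.

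Between the stop codons of a convergent pair lay a median of 420 bases (quartiles 257.25 and 718.75). Summed over pairs, 659586 of 917304 such bases (71.9%) were in a 3′ UTR of at least 1 gene. This share is fixed at 100% where the genes overlap. In the 558 pairs without overlap it was 317398 of 575116 bases (55.2%), and the median pair had 69.8%. The 558 include pairs found only in the order by gene start, in which another protein-coding gene can lie between the stop codons. In SPAC11D3.06/SPAC11D3.08c, for example, toe4 (116054 to 120233) lay across most of that stretch. Such genes count in these bases and distances and in the gap lengths above. The stop codons of overlapping pairs were closer, 321 bases at the median against 685.5 bases in pairs without overlap, while their summed 3′ UTRs were longer, 673 against 411 bases. The split itself favours both directions, since a pair overlaps where its summed 3′ UTRs exceed the distance between its stop codons.

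Overlap length equals the summed 3′ UTRs minus the distance between stop codons, so long overlaps favour long 3′ UTRs and close stop codons by construction. In overlaps of 1000 bases or more the longer 3′ UTR of a pair had a median of 1712 bases and the shorter one 260. In overlaps under 1000 bases these medians were 343 and 163 bases. The stop codons of pairs with overlaps of 1000 bases or more lay 207.5 bases apart at the median, against 364.5 bases in the shorter overlaps.

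Annotated overlap often went beyond untranslated sequence. In 434 of the 836 overlapping pairs (51.9%, interval 48.5 to 55.3%) no 3′ UTR lay over coding bases and no coding bases coincided. In 388 pairs (46.4%) a 3′ UTR lay over coding bases of the partner and no coding bases coincided. In 14 pairs (1.67%) coding bases of both genes coincided. Some of these, such as alp41/mug62, also had a 3′ UTR over coding bases of the partner. Of the 521241 shared bases, 104562 (20.1%) were 3′ UTR in both genes and 372600 (71.5%) were 3′ UTR of one gene over coding sequence of the other. Only 969 bases (0.186%) were coding in both, and the remaining 43110 (8.27%) involved an intron or a 5′ UTR. The make-up changed with overlap length. Bases that were untranslated in both genes made up 96.5% of overlaps of under 50 bases, 65.4% of those from 200 to under 500 bases and 6.20% of those of 2000 bases or more. Coding sequence was reached in 62 of 453 overlaps under 200 bases (13.7%) and in 217 of 218 overlaps of 1000 bases or more (99.5%). This change with length is largely fixed by construction. A base can be 3′ UTR in both genes only between the stop codons, which lay a median of 321 bases apart in overlapping pairs.

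**Figure D2:**
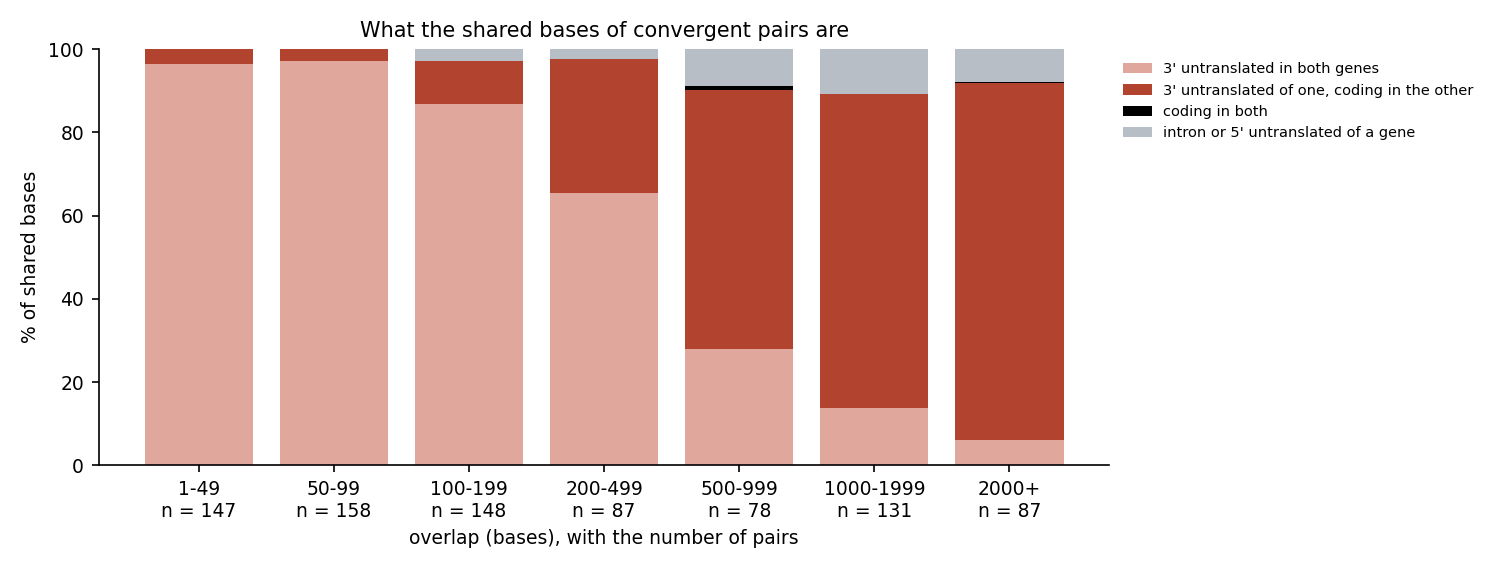
Make-up of the bases shared by overlapping convergent pairs (y axis, percentage of shared bases) by overlap length (x axis, with the number of pairs). Sequence untranslated in both genes fills the short overlaps and falls to 6.20% in those of 2000 bases or more, where a 3′ UTR over the coding sequence of the partner makes up 85.8%. Such sequence can lie only between the stop codons, so the fall is largely fixed by construction.

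The longest coding overlaps were in pairs in which 1 gene lay inside the other. In SPCC338.03c/mug112 on chromosome III 341 bases were coding in both genes, and in sro1/SPBC1347.14c on chromosome II 249 bases. Both inner genes, mug112 and SPBC1347.14c, had no annotated 3′ UTR. Next came ber1/pol5 with 104 bases, his6/map3 with 84 bases and SPCC18.10/sdc1 with 49 bases. The gene map3 encodes a mating pheromone receptor and sdc1 a subunit of the Set1 complex.

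Whether a gene pair counts as convergent depended on how neighbours were ordered, and this touched clr4, the H3K9 methyltransferase gene deleted in the series. The plus-strand gene meu6 (chromosome II, 454161 to 456553) and clr4 (453996 to 458410, minus strand) face each other tail to tail, with stop codons 262 bases apart. The 3′ UTR of clr4 was 2579 bases and that of meu6 241 bases, and clr4 covered the whole of meu6. Sorted by gene start clr4 therefore comes first and the pair counts as divergent. Sorted by the lowest coding base, an order tried after seeing the values, it was a convergent pair with an overlap of 2558 bases.

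The same held for other pairs. By coding order 1401 pairs were convergent, 1298 of them shared with the order by gene start, 103 found only by coding order and 96 only by gene start. Of those 103, 102 overlapped, by 363 to 7816 bases with a median of 1960. The longest was prp17/fab1 on chromosome II (7816 bases). Of the 96 pairs found only by gene start 24 overlapped (25%). In coding order 914 of 1401 pairs overlapped (65.2%, interval 62.7 to 67.7%), with a median of 234 bases and 298 overlaps of 1000 bases or more. Of the 131 overlapping divergent pairs, 98 (74.8%) were convergent by coding order, and 33 of 1403 divergent pairs (2.35%) overlapped in that order.

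The order by gene start also treated the strands unequally. By that order the plus-strand gene covered the whole minus-strand gene in 102 pairs, and the reverse was found in 0 pairs, which is fixed by the sorting. By coding order the numbers were 100 and 89. A plus-strand gene alone ran past the stop codon of its partner in 176 pairs by gene start and 176 by coding order. A minus-strand gene alone did so in 90 pairs by gene start and 142 by coding order.

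**Figure D3:**
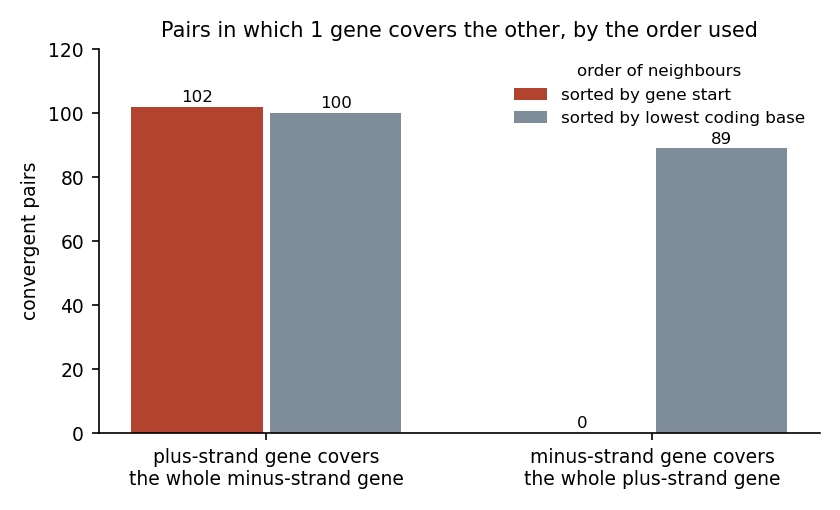
Number of convergent pairs (y axis) in which 1 gene covers the whole of the other, by strand of the covering gene (x axis) and by the order used to define neighbours (colours). Sorting by gene start leaves 102 pairs covered by the plus-strand gene and 0 by the minus-strand gene, and sorting by the lowest coding base gives 100 and 89.

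The share of overlapping pairs was close on the chromosomes, 141 of 242 pairs on chromosome III (58.3%, interval 52.0 to 64.3%), 315 of 514 on II (61.3%, interval 57.0 to 65.4%) and 380 of 638 on I (59.6%, interval 55.7 to 63.3%). These intervals overlap one another. The stretch between stop codons was wider on chromosome III, at a median of 516.5 bases (95% interval of the median 473 to 583). It was 385.5 bases on II (358 to 414) and 407.5 bases on I (374 to 450). The 3′ UTRs were longer there as well, at a median of 281 bases in convergent pairs, against 227.5 bases on II and 228.5 on I. Chromosome III also had the longest median among genes outside convergent pairs, at 324 bases, against 245 bases on II and 228 on I. Median overlaps were 211, 156 and 159.5 bases on III, II and I, and median gaps 233, 163 and 160 bases, with intervals of the medians that overlapped. Tandem pairs had median gaps of 402, 333 and 341 bases on III, II and I, and divergent pairs 941, 787 and 732 bases. Wider spacing on III was thus not particular to convergent pairs.

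Shares by length class also varied between chromosomes, and a gap class and an overlap class are given as examples. Gaps from 50 to under 100 bases were found in 3 of 101 pairs without overlap (2.97%, interval 1.02 to 8.37%), against 19 of 199 on II (9.55%, interval 6.20 to 14.4%) and 41 of 258 on I (15.9%, interval 11.9 to 20.8%). Overlaps from 200 to under 500 bases made up 24 of 141 (17.0%, interval 11.7 to 24.1%), against 25 of 315 on II (7.94%, interval 5.43 to 11.5%) and 38 of 380 on I (10%, interval 7.37 to 13.4%). Both classes were picked out of 15 after their values were seen, and nothing is read from them alone. Convergent pairs numbered fewer per length on chromosome III, at 98.7 per megabase, against 113 on II and 114 on I. Their share of neighbouring pairs was close, at 26.5% on III, 27.6% on II and 27.3% on I. The lower density was thus not particular to convergent pairs.

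**Figure D4:**
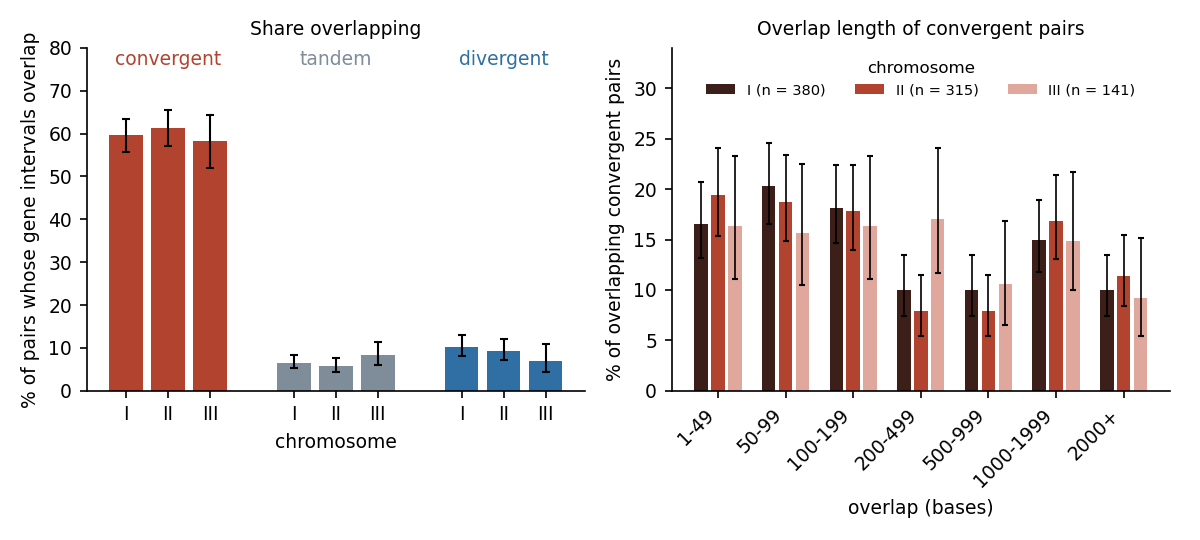
Left, percentage of neighbouring pairs whose genes overlap (y axis) by orientation and chromosome. Right, overlap lengths of convergent pairs (x axis, bases) as a percentage of the overlapping pairs of each chromosome (y axis). Bars on the columns are 95% Wilson intervals. The convergent share lies between 58.3% and 61.3% on all 3 chromosomes, and overlaps from 200 to under 500 bases are 17.0% on chromosome III, 7.94% on II and 10% on I.

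Near the ends of chromosomes I and II convergent genes seldom overlapped, while on III 3 of 5 pairs did, a difference that was not tested. Within 50 kb of an end 4 of 23 pairs overlapped (17.4%, interval 6.98 to 37.1%), against 832 of 1371 pairs farther in (60.7%, interval 58.1 to 63.2%). The 4 were SPBPB2B2.18/SPBPB2B2.19c on chromosome II and nic1/SPCC757.02c, apl4/cwf18 and SPCC569.05c/SPCC569.04 on III. By chromosome, 0 of 9 end pairs overlapped on I, 1 of 9 on II (11.1%) and 3 of 5 on III (60%), against 60.4%, 62.2% and 58.2% farther in on I, II and III. The annotation of untranslated ends moved with this: 15 of 46 genes near the ends had no 3′ UTR (32.6%), against 125 of 2742 farther in (4.56%). Its part in the result was not tested. Where both genes had a 3′ UTR, 3 of 10 pairs near the ends overlapped (30%), against 803 of 1250 farther in (64.2%). Over all chromosomes, 30 of 134 pairs with a gene lacking a 3′ UTR overlapped (22.4%), against 806 of 1260 pairs in which both had one (64.0%).

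Non-coding genes were annotated between the stop codons, on either strand, in 609 of 1394 convergent pairs (43.7%, interval 41.1 to 46.3%). No such share was counted for tandem or divergent pairs, so whether it is particular to convergent pairs is not known here. In 599 of these 1394 pairs at least 1 was a long non-coding RNA gene. Non-coding genes were found in 249 of 836 overlapping pairs (29.8%) and in 360 of 558 pairs without overlap (64.5%), whose intervals between stop codons were longer. Small structural RNA genes, such as tRNA and snoRNA genes, were found in 1 overlapping pair and in 36 pairs without overlap. A non-coding gene lay wholly between the stop codons in 19 overlapping pairs and in 132 pairs without overlap.

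The AATAAA hexamer was searched on the coding strand in the last 50 bases of genes that have a 3′ UTR and the same ends in the file and in ASM294v3. Genes with equal ends numbered 2332 on chromosome I, 850 on II and 36 on III. It was found at 309 of 1658 ends in convergent pairs (18.6%, interval 16.8 to 20.6%), against 16.9% of all protein-coding ends read. At the 1299 other ends it was found in 192 (14.8%, interval 13.0 to 16.8%). In convergent pairs without overlap it was found at 110 of 644 ends (17.1%, interval 14.4 to 20.2%), which overlaps the interval of the other ends. The last AATAAA lay a median of 27 bases before the gene end (quartiles 21 and 37). The same hexamer on the opposite strand, TTTATT, was found at 192 of 1658 convergent ends (11.6%) and 188 of 1299 others (14.5%). Of 784 pairs with both ends read, 26 (3.32%) had AATAAA at both ends, 237 (30.2%) at 1 end and 521 (66.5%) at neither. The pairs psd2/mss51, uaf2/SPAP8A3.07c and elg1/dsc1 printed above are those of the 26 that overlap and hold both signals within 30 bases. GC content moved with orientation as well. Between coding sequences it was 29.5% in convergent pairs by coding order (863 intervals), against 31.4% in tandem (1452) and 32.0% in divergent ones (874). It was 39.6% in the coding sequence of genes in convergent pairs. The intervals read did not cover all pairs, as 1401 were convergent by coding order. The part of GC content in the hexamer counts was not tested.

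Of the 50 listed heterochromatin, cohesin and marker genes found, 27 lay in a convergent pair (54%), against 54.5% of all protein-coding genes. Overlap was found for 18 of these 27 (66.7%), against 60.0% of all convergent pairs. The listed share in convergent pairs was near that of all genes.

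Among 9 RNAi genes 7 were in convergent pairs, and 5 of these overlapped their partner. The Argonaute gene ago1 faced mmi1, which encodes a factor that eliminates meiotic mRNAs, across a gap of 17 bases on chromosome III. Its own 3′ UTR was 58 bases and that of mmi1 741 bases. The gap of rdp1/ade3, printed above, was 29 bases. The Dicer gene dcr1 overlapped the septin gene spn6 by 1903 bases, with only 20 bases between the stop codons. On the same chromosome the helicase gene hrr1 overlapped dms1 by 1321 bases, and cid12, a poly(A) polymerase-like gene of the same complex, overlapped the acetyltransferase gene naa50 by 3180 bases. With a 3′ UTR of 3401 bases, cid12 covered all 657 bases of naa50. The 2 short overlaps were ers1/ipi1 (61 bases) and arb2/crb3 (24 bases). The genes tas3 and arb1 were in no convergent pair.

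Of 5 genes of H3K9 methylation, 3 were in convergent pairs by gene start and 4 by coding order, which added clr4. Here rik1, a subunit of the methyltransferase complex, overlapped SPCC11E10.09c by 3703 bases, and SPCC11E10.09c had a 3′ UTR of 3571 bases, against 616 bases in rik1. The gene stc1, which links RNAi to that complex, shared 842 bases with mug30, whose 3′ UTR was 843 bases. A gap of 46 bases separated raf2 from erv29. The HP1 and chromodomain genes swi6, chp1 and chp2 were in no convergent pair, 0 of 3. Of 5 SHREC genes 3 were: mit1/nbr1 overlapped by 40 bases, clr2/mrps18 lay 9 bases apart and clr3/rpl4301 lay 2367 bases apart.

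Of the other deleted regulators, the histone acetyltransferase gene mst2 shared 3436 bases with the exocyst gene sec3, which covered it whole, and set1 was in no convergent pair. Of 3 anti-silencing genes mst2 was thus the only one in such a pair, as epe1 was not. Among 7 Mst2 complex genes 3 were in overlapping pairs: mst2, ptf2 (130 bases with the ribosomal protein gene rps3) and eaf6 (42 bases with arc2). Of 8 Set1 complex genes 5 were in convergent pairs, 4 of them overlapping. The overlaps were 1054 bases for sdc1, 361 for shg1 with dma1, 41 for swd2 and 23 for ash2 with swf1, and swd1 lay 232 bases from SPAC23H3.04. Of 10 cohesin genes 3 were in overlapping pairs. The kleisin gene rad21 overlapped pof3 by 962 bases, psc3 overlapped SPAC607.02c by 1175 bases and eso1 overlapped SPBC16A3.12c by 199 bases.

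The thiamine-repressed gene nmt1 faced gut2 across 929 bases, and thi2, listed under its synonym nmt2, faced sec9 across 284 bases. Neither pair overlapped. The native ade6 gene faced vtc4, a polyphosphate polymerase subunit gene, across 339 bases, with 3′ UTRs of 40 and 50 bases.

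The editing of the genome changed convergent pairs at ura4. In this annotation, which holds no ura4, tam14 (114921 to 115256 on chromosome III) and new25 (115771 to 116126) were a convergent pair 514 bases apart, against ASM294v3, in which tam14 and ura4 were convergent with a gap of 332 bases. Neither tam14 nor new25 had an annotated 3′ UTR. In the annotation of the ectopic reporter the same pair was 3555 bases apart, with a gene named Tetarr-ade6 between them. Of the 1394 pairs, tam14/new25 and SPAC20G4.09/erg4 were the only ones absent from the ASM294v3 annotation. Within 20 kb of the edited ura4 site lay 5 convergent pairs, none of which overlapped. The nearest beside tam14/new25 were rhp7/SPCC330.19c on the left, with a gap of 10 bases, and btb1/sdh3 on the right, with a gap of 163 bases.

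The array at the endogenous site is entered in the file as 9xtetoura4, a name that differs from the reporter in the labels, on a sequence called mating_type_region. Its positions fall inside the stretch of chromosome II where the file departs from ASM294v3, and distances here take them as chromosome II positions. On that reading 4 convergent pairs lay within 20 kb, and 2 of them overlapped. The nearest on the left was SPBC23G7.14/rpp202, 6600 bases away, in which the 1104-base 3′ UTR of SPBC23G7.14 ran 143 bases into the ribosomal protein gene rpp202. The nearest on the right was aha1/SPBC1711.09c, 18643 bases away, with an overlap of 12 bases.

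The convergent ends were nearly the same in the other deposited annotation, unlike the 5′ ends. Of 1394 pairs here and 1398 pairs in the ectopic-site annotation 1352 were shared, and 1338 of these (99.0%) had the same distance between gene ends. Overlap status changed in 8 pairs, of which 2 overlapped only in the endogenous-site annotation and 6 only in the ectopic-site one. In adh1/SPCC13B11.02c the alcohol dehydrogenase gene and its neighbour were 512 bases apart here and had a distance of -2894 bases there. In otu1/spn5 the distance was 99 bases here and -2957 there. Over the 5095 protein-coding genes of both files the 3′ UTR length was the same for 5060 (99.3%) and the 5′ UTR length for 290 (5.69%). The overlapping share was 61.1% of convergent pairs in the ectopic-site annotation, against 60.0% here. That of tandem pairs was 13.8% there, against 6.64% here, and that of divergent pairs 21.5%, against 9.38% here.

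**Figure D5:**
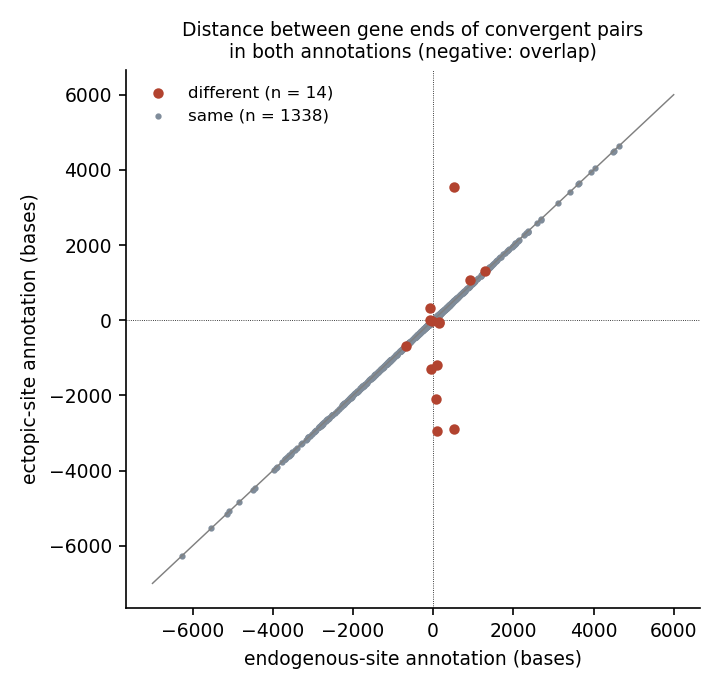
Bases between the gene ends of 1352 convergent pairs found in both deposited annotations, in the endogenous-site annotation (x axis) and in the ectopic-site annotation (y axis), negative where the genes overlap. The 1338 pairs with equal distances lie on the diagonal, and 14 pairs lie off it.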

How the data were processed

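The 2 files used are genome annotations that the authors deposited for the whole series. They give feature starts and ends in bases, counted from 1, and hold no value per library. The endogenous-site annotation, used throughout, names PomBase as the source of its features. The ectopic-site annotation, used for comparison, was written by Geneious 7.1.5 per the file headers. No label ties either file to a strain, and they are called by the site at which each one holds the reporter. The build is not given in the sources used here. Per the submitters' processing notes, reads were handled with Trimmomatic and BWA. Read depth is unknown here, and samples were grouped by title, with 1 library per group.

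Genes with an mRNA were sorted by start and neighbours classed by strand. The distance is the right gene's start minus the left gene's end minus 1. The 3′ UTR is the stretch from the last coding base to the gene end, over all transcripts of the gene. Shares have 95% Wilson intervals, and medians have binomial order-statistic intervals. No test was made. Sequences and the AATAAA search used genes with equal ends in the file and in RefSeq's ASM294v3 (3218 of 5113). A total of 5111 genes matched it by identifier. Named pairs were the 5 longest overlaps, gaps and coding overlaps, the shortest ones, those nearest an edited site and those with a listed gene. Other pairs were named after their values were seen. The members, lists and rules were chosen with earlier results of these data known. Scripts ran in Python 3.11.15 with scipy 1.17.1, numpy 2.4.6 and, for plots, matplotlib 3.10.9. Pairing by coding order, overlap status, shared bases and their make-up, and 3′ UTR length were tested on simulated data. Pairing by gene start was not checked there.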

Additional observations from a re-analysis of the deposited data

How the results depend on the processing

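Of 42 alternatives, 26 kept their value and 16 moved it. A share or median was taken as kept inside its 95% interval and a count within 1.5 times. These are values of convergent pairs alone, so whether differences from other genes or between chromosomes keep their direction was assessed only where the text gives both values. Requiring that no non-coding gene lie between the genes in the order by start left 695 pairs, with 68.6% overlapping, a median overlap of 247 bases and a median gap of 125 bases. Leaving out nested pairs gave 56.8% and a median overlap of 127 bases. The order by coding base, added after seeing the values, gave 65.2% and 234 bases. With the last coding base in place of the gene end 1.08% overlapped, and with at least 50 bases required 49.4%. Without chromosome I 756 pairs remained and without chromosome II 880, fewer by construction. The median 3′ UTR of convergent genes was 250.5 bases without the genes that lack one. The share of ends with AATAAA was 29.1% in the last 100 bases and 26.8% with ATTAAA counted too. A non-coding gene lay between the gene ends or in their overlap in 19.4% of pairs. The cause of these shifts was not tested beyond their construction. The ectopic-site annotation moved none of these values of convergent pairs, but overlap was 13.8% in tandem and 21.5% in divergent pairs there, against 6.64% and 9.38% here. No paired analysis was possible because annotation positions carry no replicate numbers. The limit of every value is the annotation, since a gene end is 1 position per gene and holds no measure of how often it is used.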
